A study of Mus musculus with 10 samples.

Results

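The genes described here are 10 immediate early genes: the AP-1 genes Fos, Fosb, Jun, Junb and Jund, the zinc finger genes Egr1 and Egr2, the nuclear receptor gene Nr4a1, and Ier2 and Ier3. They are a list by function, and each was read from 1 probe set whose only annotated symbol was that gene. All 10 were found among the 19938 symbols of the array, and all 10 were among the 14953 genes bright enough to be tested (a mean over all arrays above 4.52 on the log2 scale). Most of the list encode transcription factors or nuclear regulators, while Ier3 encodes a regulator of cell survival, so the genes are called immediate early genes here.

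RNA came from B220+ cells, which were sorted out of pre-B colonies after bone marrow had grown for 7 days in a methylcellulose medium that supports B cell precursors. One group was 5 Hspa9+/+ littermates, here called wild type, and the other was 5 Hspa9+/- mice, here called heterozygous, with 1 array per mouse and no treatment in either group. Hspa9 encodes mortalin, a chaperone of the mitochondrial matrix. The sources used here do not give the kind of Hspa9 allele or the strain, age and sex of the mice. Values are RMA levels on the log2 scale, so a difference of 1 means one level is 2 times the other, and levels of different genes were not set against each other because each probe set has its own response.

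Immediate early genes are transcribed soon after a cell receives a signal, from factors already present and without new protein synthesis. Growth factor and antigen receptor signals reach their promoters through the ERK kinases, serum response factor with its ETS partners, and CREB. Fos and Jun proteins pair through leucine zippers to form AP-1, which binds DNA only as a dimer, while EGR proteins bind GC-rich sites alone and are held back by the NAB corepressors. In B cells these genes are known as readouts of antigen receptor signalling, and in macrophages as readouts of growth factor and inflammatory signals.

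Hspa9 averaged 9.92 ± 0.378 (SD, n = 5) in the wild type and 9.18 ± 0.244 (SD, n = 5) in the heterozygous group. Its level in heterozygous arrays was thus 60.3% of wild type (log2 difference -0.73, SE 0.185, limma adjusted p = 0.345, exact permutation p = 0.0159 for this single gene). B lineage markers were high on every array, and all 13 measured markers passed the filter. Their mean ran from 10.69 to 11.00 on the wild type and from 10.40 to 10.76 on the heterozygous arrays. Of the 13, 10 had differences below 0 (median -0.14), where 61.3% of all genes lay above 0. At an unadjusted p under 0.05, 2 were lower and 1 was higher, against 4.25% and 6.79% of all genes, and 0 were called. In a fit without wild type 1 and heterozygous 2, 2 of the 13 were called, against 0.174% of all genes. The sort marker gene Ptprc was at -0.68 (SE 0.345, limma adjusted p = 0.490). It read 8.33 and 7.89 in heterozygous 4 and 5 and 9.37 to 9.76 in the other heterozygous arrays, and the difference was -0.40 without heterozygous 5. Markers of other cells were also read, and not all of them lay near the filter's cutoff of 4.52. The mean of 16 monocyte and macrophage markers, 15 of which passed the filter, ran from 5.44 to 8.42 in wild type and from 6.62 to 9.01 in heterozygous arrays, with wild type 1 and heterozygous 2 the highest. The macrophage lysozyme gene Lyz2 was the highest in those same arrays, at 12.82 and 12.87, and the receptor gene Csf1r at 9.06 and 9.47. All 15 macrophage markers that passed the filter had differences above 0 (median 0.93), where 61.3% of all genes did, and 0 had an unadjusted p under 0.05. Neutrophil lineage markers averaged 4.76 to 6.55 in wild type and 5.26 to 7.08 in heterozygous arrays, and megakaryocyte markers 4.93 to 7.54 and 5.25 to 7.79, also highest in wild type 1 and heterozygous 2. Plasmacytoid dendritic cell markers averaged 6.02 to 6.89 and 6.60 to 7.84, and T cell and NK cell markers 4.55 to 4.82 and 4.87 to 5.12, the last without overlap between genotypes. In each of these 2 lists 4 of 6 genes that passed the filter were higher at an unadjusted p under 0.05, against 6.79% of all genes, and 0 were called. The T cell and NK cell means took in all 11 measured genes, of which 6 passed the filter, and lay close to its cutoff. Erythroid markers averaged 4.85 to 5.20 in wild type and 5.01 to 5.24 in heterozygous arrays. The part of these markers in the results below was not tested, except that correlations and a fit with the macrophage mean were made. In such bulk samples, fewer cells of a type and less RNA per cell cannot be told apart.

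Promoters of 8 of the 10 genes were found in the RefSeq table of build GRCm38.p6, and those of Egr1 and Ier2 were not used here. Each window is the 250 bases before a listed start. They were searched on both strands for the CArG box bound by serum response factor, the cyclic AMP response element TGACGTCA, the AP-1 site TGANTCA and the EGR site GCGNGGGCG. A CArG box was found for Egr2 only, 1 of the 8 genes, against 1.62% of all 27025 genes (1.47% of all 32851 windows of this length). Egr2 has 5 listed windows and 2 distinct boxes, 1 of them held by 3 overlapping windows. An EGR site was found for Fosb and Nr4a1, 2 of the 8 genes, against 5.33% of all genes (4.70% of all windows). This site is GC-rich, and G and C made up 68.8% of the Fosb and 74.4% of the Nr4a1 window. All genes were not matched for this content, and no test of the share was made. No window of the 8 genes held TGACGTCA (1.55% of all windows) or TGANTCA (6.75%). Sites farther than 250 bases before a start, or differing from these exact patterns, were not looked for. A gene without a match here is therefore not shown to lack the element. These 4 windows are shown because Fos and Egr2 varied together over the arrays, while Fosb and Nr4a1 had differences of opposite sign. Capitals mark the matched motif, a CArG box in Egr2 and an EGR site in Fosb and Nr4a1, and Fos has none in this window. Egr2 lies at chr10:67537619-67537868 on the plus strand, Fos at chr12:85473640-85473889 on the plus strand, Fosb at chr7:19310046-19310295 on the minus strand and Nr4a1 at chr15:101266596-101266845 on the plus strand.
Egr2: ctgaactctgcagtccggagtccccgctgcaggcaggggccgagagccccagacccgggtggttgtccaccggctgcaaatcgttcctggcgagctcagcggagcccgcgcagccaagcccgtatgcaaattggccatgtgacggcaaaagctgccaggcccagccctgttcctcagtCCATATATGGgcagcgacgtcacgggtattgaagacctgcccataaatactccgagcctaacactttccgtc
Fos: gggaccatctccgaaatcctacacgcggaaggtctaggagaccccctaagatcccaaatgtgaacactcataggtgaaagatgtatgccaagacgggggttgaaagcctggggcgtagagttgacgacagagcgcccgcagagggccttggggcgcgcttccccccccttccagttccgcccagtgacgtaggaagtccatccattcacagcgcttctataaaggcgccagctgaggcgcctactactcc
Fosb: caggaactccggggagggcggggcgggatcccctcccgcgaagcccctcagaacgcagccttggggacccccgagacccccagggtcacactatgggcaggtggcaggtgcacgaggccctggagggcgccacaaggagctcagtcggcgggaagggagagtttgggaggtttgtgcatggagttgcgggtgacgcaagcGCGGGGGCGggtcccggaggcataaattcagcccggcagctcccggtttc
Nr4a1: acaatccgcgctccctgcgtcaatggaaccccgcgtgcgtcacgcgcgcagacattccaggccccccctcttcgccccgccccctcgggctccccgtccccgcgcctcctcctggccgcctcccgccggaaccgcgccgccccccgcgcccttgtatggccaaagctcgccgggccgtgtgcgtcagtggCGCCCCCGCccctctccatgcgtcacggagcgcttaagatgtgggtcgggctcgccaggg

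The Egr2 CArG box shown begins 72 bases before the start, the Fosb match 50 bases and the Nr4a1 match 60 bases before it. These are matches of letters and not measured binding.

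None of the 10 immediate early genes passed the comparison of genotypes. By limma with Benjamini-Hochberg adjustment over all 14953 genes, 0 of the 10 passed a threshold of 0.05, as did 0% of all genes. Before adjustment, 0 of the 10 had a p under 0.05, against 11.0% of all genes. The genotypes overlapped in all 10, where 2.28% of all genes had groups that did not overlap. Of the list, 6 of 10 lay above 0 and the median difference over the 10 was 0.066, against 61.3% of all genes above 0 and a median of 0.058. The list was therefore near the background on each of these counts. The differences ran from -0.26 for Fosb to 0.71 for Ier3, and the plot of values by array shows the overlap.

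**Figure D1:**
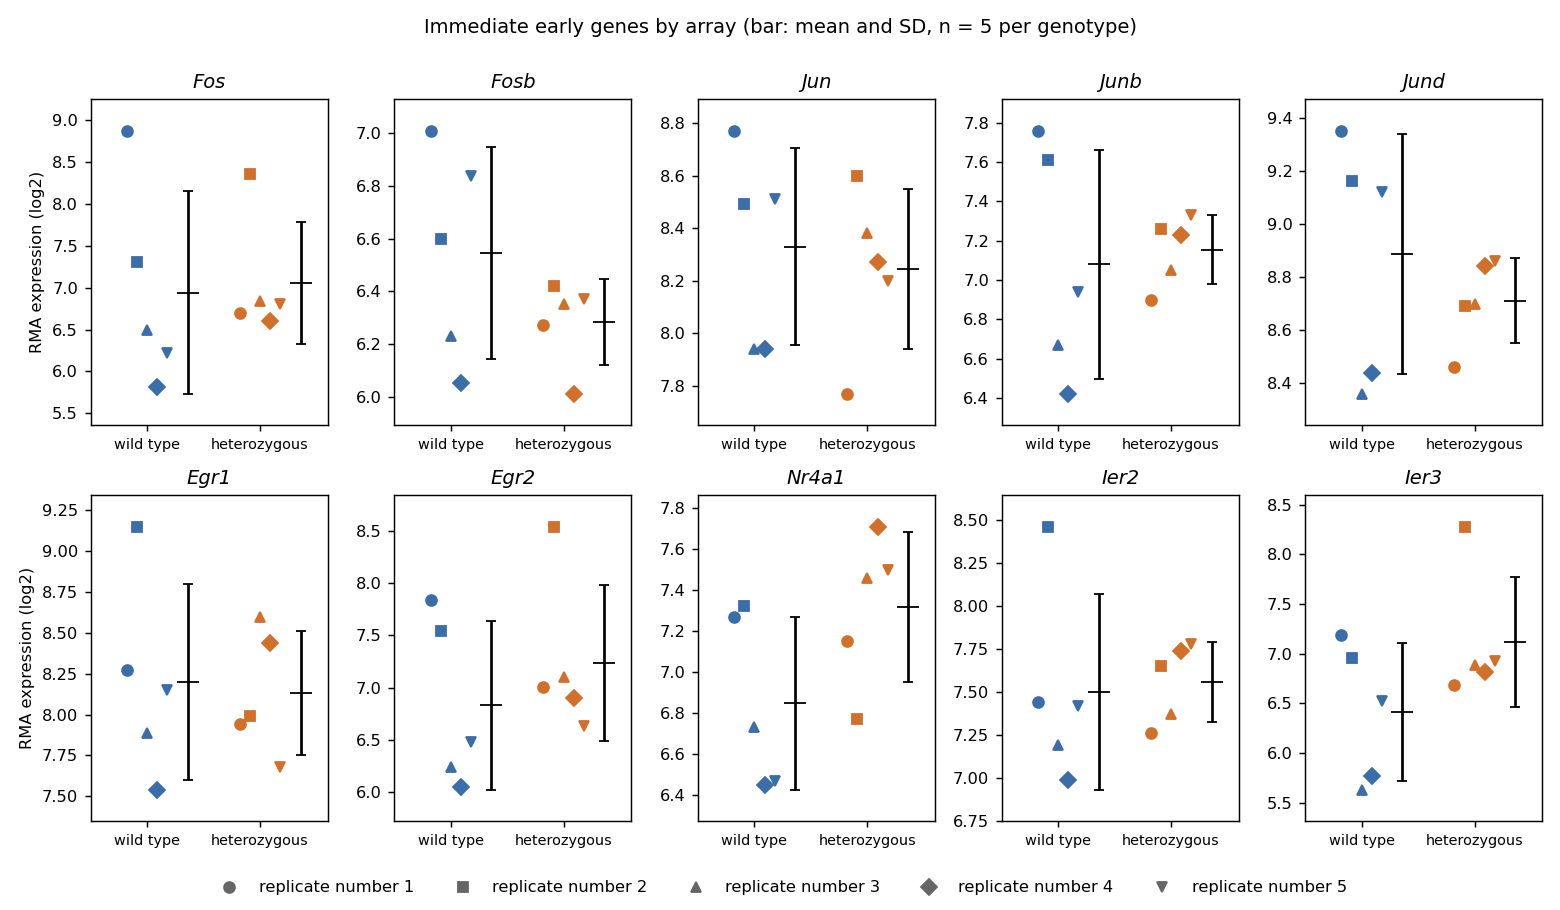
RMA expression (log2) of the 10 genes on each array, 5 wild type and 5 heterozygous, with the marker shape giving the replicate number and bars giving the mean and SD. The genotypes overlap in every gene, and wild type 1 or 2 holds the highest value in 7 of the 10.

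Of the Fos family, Fos spanned the widest range of all 10 genes. Its wild type values were 8.87, 7.30, 6.49, 5.82 and 6.22, and its heterozygous values were 6.70, 8.35, 6.84, 6.60 and 6.80. Wild type 1 and heterozygous 2 stood above the other arrays, and 4 heterozygous arrays lay within the wild type range between wild type 2 and wild type 3. The difference was 0.12 (SE 0.543, 95% interval -1.07 to 1.32, limma adjusted p = 0.932). It turned to -0.16 without wild type 4, -0.06 without wild type 5 and -0.20 without heterozygous 2, and it was 0.60 without wild type 1, so the arrays do not give Fos a direction.

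Fosb, the paralogue of Fos that also has to pair with a Jun protein, had the lowest difference of the list. It read 7.01, 6.60, 6.23, 6.05 and 6.84 in wild type and 6.27, 6.42, 6.35, 6.01 and 6.37 in heterozygous arrays. Wild type 1, 2 and 5 lay above every heterozygous array, and wild type 3 and 4 lay among them. The difference was -0.26 (SE 0.179, 95% interval -0.66 to 0.13, limma adjusted p = 0.559), below 0 in all 20 alternative fits, from -0.40 with the macrophage mean as a covariate to -0.14 with array weights, and it was -0.15 without wild type 1.

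The Jun family supplies the partners of Fos proteins and can also pair within itself. Jun read 8.77, 8.49, 7.94, 7.94 and 8.51 in wild type and 7.77, 8.60, 8.38, 8.27 and 8.20 in heterozygous arrays. Heterozygous 1 was the lowest of all arrays, and the other 4 heterozygous arrays lay inside the wild type range. The difference was -0.09 (SE 0.196, 95% interval -0.52 to 0.35, limma adjusted p = 0.858). It was 0.02 without wild type 1 and 0.03 without heterozygous 1.

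Junb, whose product is a weaker activator than Jun, read 7.76, 7.61, 6.67, 6.42 and 6.94 in wild type and 6.90, 7.26, 7.05, 7.23 and 7.33 in heterozygous arrays. The heterozygous arrays lay close together inside the wild type range, with an SD of 0.177 against 0.584. Its difference was 0.07 (SE 0.243, limma adjusted p = 0.907), and it was -0.03 without wild type 3 and -0.09 without wild type 4.

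Jund, the Jun gene least dependent on stimulation, read 9.35, 9.16, 8.36, 8.44 and 9.12 in wild type and 8.46, 8.69, 8.70, 8.84 and 8.86 in heterozygous arrays. Here too the wild type arrays parted, 3 above and 2 below every heterozygous value. The difference was -0.18 (SE 0.196, limma adjusted p = 0.698). It stayed below 0 in all 20 alternative fits, at -0.31 without wild type 3 and -0.06 without wild type 1.

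Egr1 and Egr2 encode zinc finger factors that bind the same GC-rich site. Egr1 read 8.27, 9.15, 7.89, 7.54 and 8.15 in wild type and 7.94, 7.99, 8.60, 8.44 and 7.68 in heterozygous arrays. Wild type 2 was the highest and wild type 4 the lowest, and every heterozygous array lay between them. The difference was -0.07 (SE 0.281, 95% interval -0.69 to 0.55, limma adjusted p = 0.924). It was 0.17 without wild type 2 and 0.04 without heterozygous 5. In the RefSeq gene order Egr1 lies on chromosome 18 beside the targeted locus, with 1 gene between it and Hspa9, and its level in heterozygous arrays was 95.2% of wild type.

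Egr2, which is also an effector of macrophage differentiation, read 7.84, 7.54, 6.24, 6.05 and 6.48 in wild type and 7.01, 8.54, 7.10, 6.90 and 6.63 in heterozygous arrays. Heterozygous 2 was the highest of all arrays, and wild type 3, 4 and 5 were the lowest. The difference was 0.41 (SE 0.426, 95% interval -0.53 to 1.35, limma adjusted p = 0.684), 0.08 without heterozygous 2 and 0.66 without wild type 1.

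Nr4a1 encodes NUR77, an orphan nuclear receptor induced by antigen receptor signals. It read 7.27, 7.32, 6.73, 6.45 and 6.47 in wild type and 7.15, 6.77, 7.46, 7.71 and 7.50 in heterozygous arrays. Heterozygous 3, 4 and 5 lay above every wild type array, while heterozygous 1 and 2 lay inside the wild type range. The difference was 0.47 (SE 0.225, 95% interval -0.02 to 0.97, 139% of wild type), with a limma adjusted p of 0.468 and an exact permutation p of 0.0873 for the single gene. Unlike Fos, Egr2 and Ier3, Nr4a1 was low in heterozygous 2, and it was at 0.61 without that array. The difference was above 0 in all 20 alternative fits, with adjusted p from 0.0843 with array weights to 0.781.

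Ier2 encodes a small nuclear protein induced by growth factors. It read 7.44, 8.46, 7.19, 6.99 and 7.42 in wild type and 7.26, 7.65, 7.37, 7.74 and 7.78 in heterozygous arrays. As with Egr1, wild type 2 was the highest and wild type 4 the lowest. The difference was 0.06 (SE 0.243, limma adjusted p = 0.925), 0.30 without wild type 2, and -0.02 and -0.07 without wild type 3 and 4.

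Ier3 encodes a protein that alters ERK signalling and cell survival. It read 7.19, 6.96, 5.63, 5.77 and 6.52 in wild type and 6.68, 8.28, 6.89, 6.82 and 6.93 in heterozygous arrays. Every heterozygous array lay above wild type 3, 4 and 5, and only heterozygous 2 lay above wild type 1. The difference of 0.71 (SE 0.372, 95% interval -0.11 to 1.53, 163% of wild type) was the highest of the list, with a limma adjusted p of 0.494 and an exact permutation p of 0.183 for the single gene. It was above 0 in all 20 alternative fits and was 0.42 without heterozygous 2 and 0.90 without wild type 1.

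The wild type arrays were more spread than the heterozygous arrays in each of these genes. The SD was larger in wild type for 10 of 10, against 52.8% of all genes tested. The list had a median SD of 0.575 among wild type and 0.336 among heterozygous arrays, where the medians over all genes were 0.218 and 0.220. Without wild type 1 and heterozygous 2 the count was again 10 of 10, against 51.2% of all genes, with median SDs of 0.569 and 0.198. The genes varied together, so the 10 are not independent observations, and the difference in spread was described and not tested. Wild type 4 held the lowest value in 6 genes and wild type 1 the highest in 5. The larger wild type spread was also seen in the macrophage markers Csf1r (SD 1.84 against 0.992) and Lyz2 (1.85 against 0.552). Without wild type 1 and heterozygous 2 the macrophage mean ran from 5.44 to 7.15 in wild type and from 6.62 to 6.92 in heterozygous arrays. The part of these markers in the spread of the 10 genes was not tested.

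Pairs of immediate early genes were mostly positively correlated over the 10 arrays. Of 45 pairs, 44 had a Pearson r above 0, with a median of 0.52, where 52.2% of all pairs of the genes tested had an r above 0 and their median was 0.03. The pairs had a lowest value of -0.10 for Fosb with Nr4a1 and a highest of 0.92 for Egr2 with Ier3. After adjustment over the 45 pairs, 5 passed a permutation test of r and 7 of Spearman's rho. Fos and Egr2 had r = 0.898 (adjusted permutation p = 0.0108) and rho = 0.939 (adjusted p = 0.00742), and r was 0.890 without wild type 1 and heterozygous 2, the arrays farthest from the median of Fos. Egr2 and Ier3 had r = 0.920 (adjusted p = 0.0036) and rho = 0.903 (adjusted p = 0.01275), and r was 0.776 without heterozygous 2 and wild type 4. The other pairs passing by r were Jund with Jun (0.839), Junb (0.819) and Fosb (0.812), with an adjusted permutation p of 0.0387 for each. These were 0.738, 0.691 and 0.563 without the 2 farthest arrays. Jund with Fos had r = 0.521 (adjusted p = 0.238). Junb with Jund also passed by rho (0.830, adjusted p = 0.0318). Fos with Ier3 (rho = 0.927, adjusted p = 0.00742) and with Junb (0.842, adjusted p = 0.0288) passed by rho only. So did Junb with Ier3 (0.891, adjusted p = 0.0144) and with Ier2 (0.855, adjusted p = 0.0256). Fosb with Jund did not pass by rho (0.745, adjusted p = 0.0783), nor did Jun with Jund (0.709, adjusted p = 0.0863). The first principal component of all genes held 52.8% of the variance, with wild type 1 and heterozygous 2 at one end, and its part in these correlations was not tested. With genotype means removed the median r over the pairs was 0.62, and without wild type 1 and heterozygous 2 it was 0.68.

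**Figure D2:**
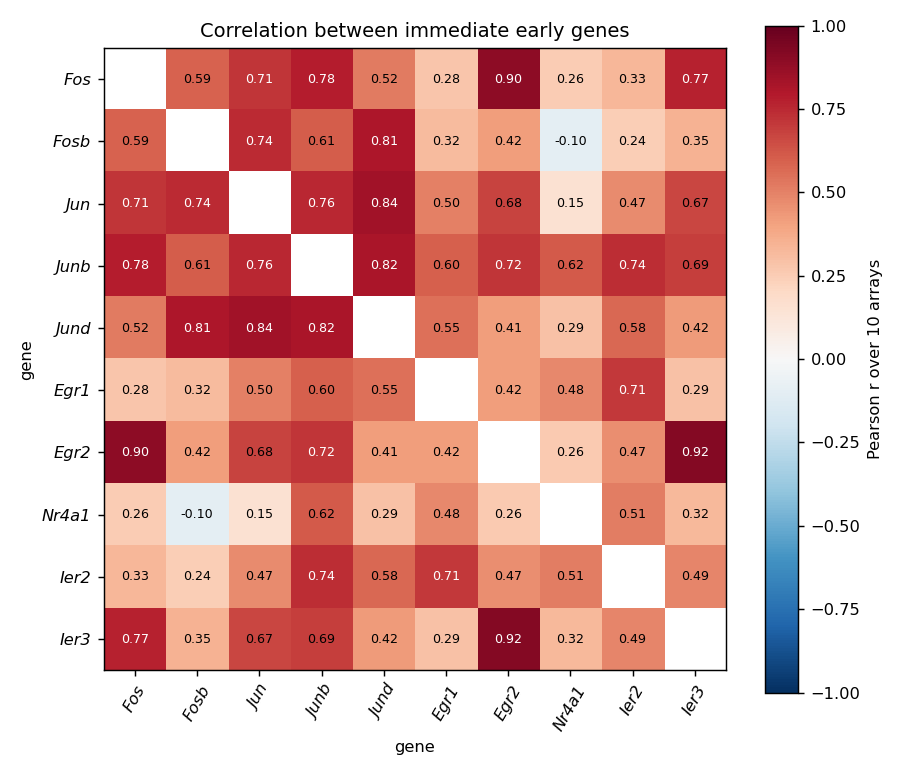
Pearson r over 10 arrays for each pair of the 10 genes, in colour and digits. Fos, Egr2 and Ier3 form a block from 0.77 to 0.92, Jund reaches 0.81 to 0.84 with Fosb, Jun and Junb, and Nr4a1 has its lowest value, -0.10, with Fosb.

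Fos, Egr2 and Ier3 followed the macrophage markers across arrays. From the lowest macrophage mean to the highest, the arrays were wild type 4, 5 and 3, heterozygous 4, 5, 3 and 1, wild type 2, wild type 1 and heterozygous 2. In that order Fos read 5.82, 6.22, 6.49, 6.60, 6.80, 6.84, 6.70, 7.30, 8.87 and 8.35. Its r with the macrophage mean was 0.936 (permutation p = 0.00019, 0.00063 adjusted over the 10 genes) with a rho of 0.952 (adjusted p = 0.0007), and r was 0.885 without wild type 1 and heterozygous 2. Egr2 had r = 0.964 (permutation p = 1e-05, the smallest that 100000 resamples can give, adjusted p = 0.0001) and rho = 0.964, and Ier3 had r = 0.905 (adjusted p = 0.0005) and rho = 0.879 (adjusted p = 0.00593). Without those same arrays r was 0.901 for Egr2 and 0.844 for Ier3, and with genotype means removed it was 0.979 for Fos, 0.964 for Egr2 and 0.898 for Ier3. Of all genes tested, 2.48% had an r with the macrophage mean as high as that of Fos, 1.18% as high as that of Egr2 and 3.97% as high as that of Ier3. Neutrophil and megakaryocyte markers were highest in the same 2 arrays, and their part was not tested. Those 2 arrays also lay at one end of the first principal component of all genes, with wild type 3, 4 and 5 at the other. That component held 52.8% of the variance, and its part in these correlations was not tested either. The macrophage means were unevenly spaced, with wild type 3, 4 and 5 together at the low end, so a few steps between arrays carry much of these values.

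The other genes had lower correlations with the macrophage markers over the 10 arrays. Junb had r = 0.729 (adjusted p = 0.0422) but did not pass by rho (0.721, adjusted p = 0.0602), and r was 0.786 without wild type 1 and heterozygous 2. For Jun r was 0.607 (adjusted p = 0.128), and it was 0.201 without wild type 1 and heterozygous 2. Nr4a1 had r = 0.346 over 10 arrays and 0.865 without those arrays, where Ier3 had 0.844, and Nr4a1 was low in heterozygous 2. The values for Fosb, Jund, Egr1 and Ier2 lay between 0.259 and 0.377, with adjusted p of 0.364 or more. Without those arrays they were 0.022 for Fosb, 0.303 for Jund, 0.584 for Egr1 and 0.657 for Ier2. The remaining Spearman values did not pass either.

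**Figure D3:**
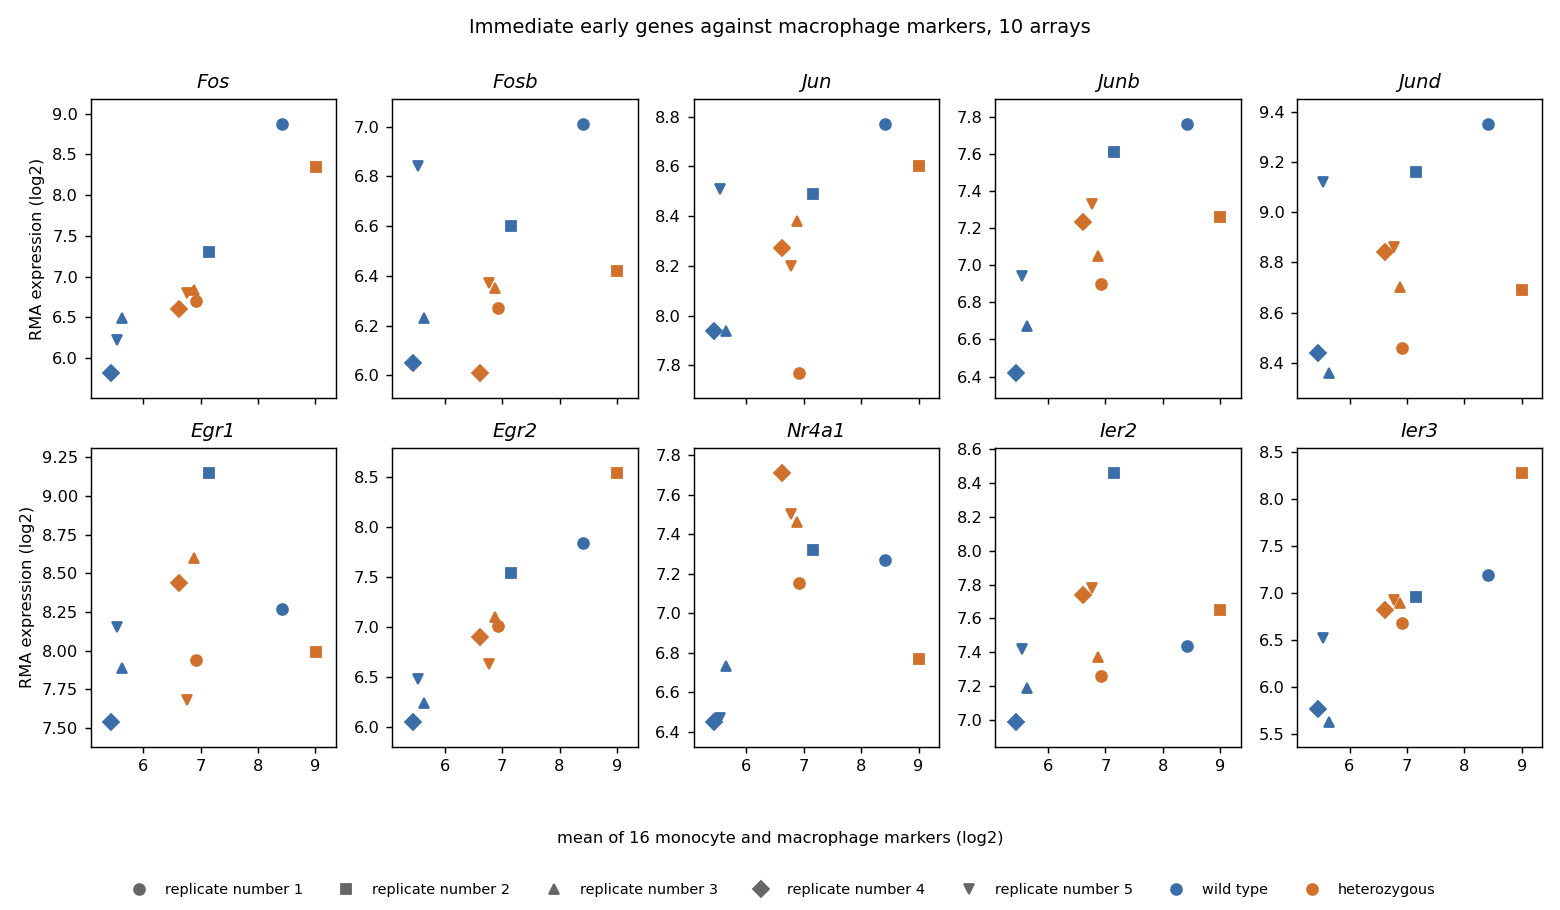
RMA expression (log2) of each gene against the mean of 16 monocyte and macrophage markers (log2) on the 10 arrays, with colour for genotype and shape for replicate number. Fos, Egr2 and Ier3 climb along the axis (r = 0.936, 0.964 and 0.905), whereas Nr4a1 is low in wild type 3, 4 and 5 at one end and in heterozygous 2 at the other.

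The genotype differences of these genes moved when the macrophage mean was a covariate in the limma fit. Fos went from 0.12 to -0.55 (SE 0.141, unadjusted p = 0.0022, adjusted p = 0.169), and Egr2 from 0.41 to -0.11 (SE 0.143). Junb and Ier2 also turned below 0, at -0.15 and -0.05. Fosb was at -0.40 (SE 0.157, unadjusted p = 0.0277, adjusted p = 0.276). In that fit 2 of the 10 genes, Fos and Fosb, were lower at an unadjusted p under 0.05, against 6.05% of all genes, and 0 passed adjustment. Ier3 was at 0.29 (SE 0.187) and Nr4a1 was at 0.42 (SE 0.234), neither passing.

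Without wild type 1 and heterozygous 2, a choice made after seeing the data, 2 of the 10 genes had an unadjusted p under 0.05, against 16.1% of all genes. Both were higher, Nr4a1 at 0.71 (SE 0.202, unadjusted p = 0.0056, adjusted p = 0.186) and Ier3 at 0.61 (SE 0.265, unadjusted p = 0.0447, adjusted p = 0.302). None of the 10 passed adjustment there, where 0.174% of all genes did. In that fit 8 of 15 macrophage and 5 of 13 neutrophil lineage markers were also higher at an unadjusted p under 0.05. Of all 14953 genes 1497 were. In these marker lists 0 were lower at that threshold and 0 were called. Without those arrays Nr4a1 and Ier3 had r = 0.865 and 0.844 with the macrophage mean. The part of these markers in the 2 differences of that fit was not tested. Array weights put the same 2 genes under an unadjusted 0.05, Nr4a1 at 0.70 (SE 0.177, adjusted p = 0.0843) and Ier3 at 0.80 (SE 0.285, adjusted p = 0.170), against 13.1% of all genes higher.

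**Figure D4:**
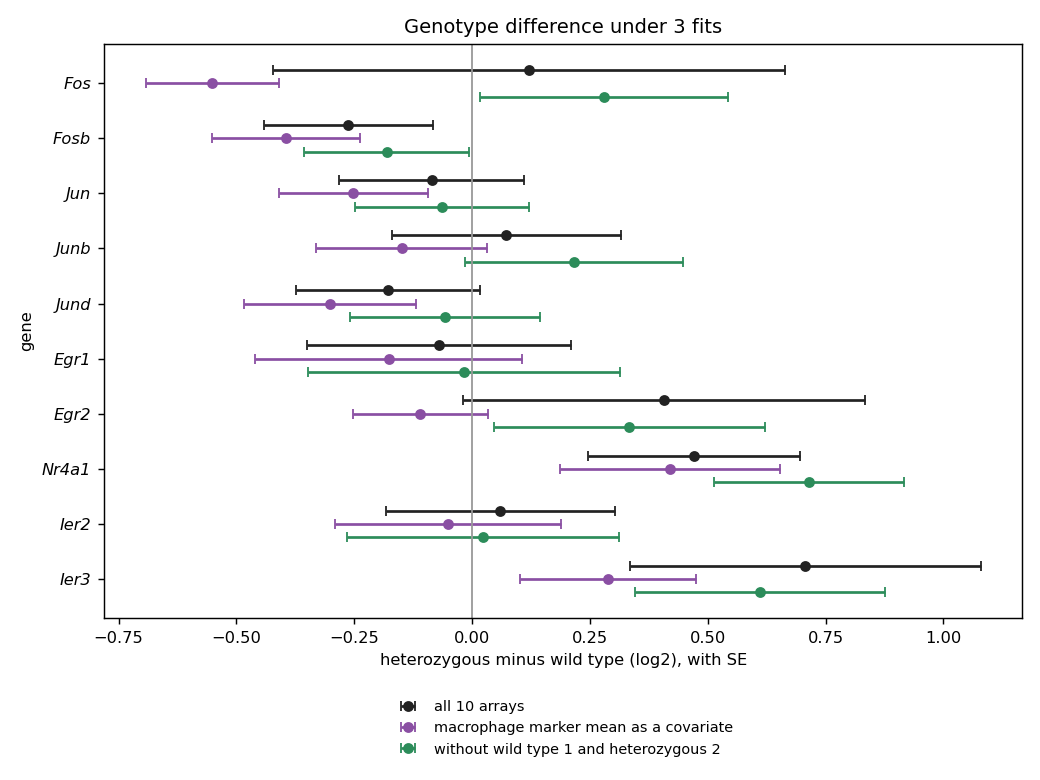
Heterozygous minus wild type difference (log2) with SE for each gene, over all 10 arrays, with macrophage markers as a covariate, and without wild type 1 and heterozygous 2. Fos goes from 0.12 to -0.55 with the covariate, while Nr4a1 and Ier3 stay above 0 in all 3 fits.

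Other AP-1 and basic leucine zipper genes were read from a list of possible partners. Of 14 measured genes 0 passed adjustment, 1 was higher and 0 lower at an unadjusted p under 0.05, against 6.79% and 4.25% of all genes, and the median difference was 0.09. That gene was Fosl1, a Fos relative without a strong activation domain. It read 4.81, 4.85, 4.75, 4.64 and 4.92 in wild type and 5.07, 5.17, 4.96, 5.21 and 5.11 in heterozygous arrays, so every heterozygous array was above every wild type array. The difference was 0.31 (SE 0.0895, limma adjusted p = 0.349), or 0.21 after quantile normalization, in a gene whose levels lay close to the filter's cutoff of 4.52. Mafk, a small MAF protein, was at 0.18 (SE 0.101). Fosl2, another Fos relative, was at 0.33 (SE 0.199) and at 0.15 with the macrophage mean as a covariate.

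Among the other EGR and NR4A genes and the NAB corepressors, 5 of 6 measured genes passed the filter. Of these 0 were called, as were 0% of all genes, and 0 had an unadjusted p under 0.05, against 11.0%. Egr4 was at 0.17 (SE 0.109) and at 0.080 after quantile normalization, and the corepressors Nab1 and Nab2 were at -0.20 (SE 0.163) and 0.20 (SE 0.167). Nab1 was at -0.33 without wild type 2 and -0.12 without heterozygous 5, and Nab2 at 0.11 without heterozygous 2 and 0.02 with the macrophage mean as a covariate. Of the kinases and promoter-bound factors upstream, 17 of 23 listed genes were measured, 0 were called, and 2 were lower and 0 higher at an unadjusted p under 0.05, against 4.25% and 6.79% of all genes. They were Crem, a CREB relative that can act as a repressor, at -0.27 (SE 0.102, limma adjusted p = 0.392) and Elk3, an ETS partner of serum response factor, at -0.39 (SE 0.155, limma adjusted p = 0.413), which was -0.25 without wild type 5. The ERK-activated kinase gene Rps6ka3 was at -0.59 (SE 0.317). It was lowest in heterozygous 5, at 5.48, and the difference was -0.35 without that array.

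The other early response and feedback genes lay on both sides of 0, with 16 of 35 above it, and none passed. Of 35 measured, 0 passed adjustment, and 8 were lower and 1 higher at an unadjusted p under 0.05, where 4.25% of all genes were lower and 6.79% higher. Their median difference was -0.13, against 0.058 over all genes. With the macrophage mean as a covariate 12 were lower, against 6.05% of all genes, and without wild type 1 and heterozygous 2 there were 8, against 6.09%. No test of the list was made.

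Cd69, a lectin-like receptor that rises early after lymphocyte activation and holds back S1P receptor 1, had the smallest p. It read 8.18, 9.15, 8.88, 8.92 and 9.28 in wild type and 7.93, 7.52, 8.12, 7.92 and 7.86 in heterozygous arrays. All heterozygous arrays lay below all wild type arrays, and wild type 1 was the nearest to them. The difference was -1.01 (SE 0.195, limma adjusted p = 0.220). Cd69 passed in 3 alternative fits. It was at -1.19 without wild type 1 (limma adjusted p = 0.0224) and -1.01 with array weights (limma adjusted p = 0.0253). Without wild type 1 and heterozygous 2, a choice made after seeing the data, it was at -1.10 (limma adjusted p = 0.0262). In these fits 22, 137 and 26 of all 14953 genes were called. The fits share most of their arrays and are not independent of each other.

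Btg2, an antiproliferative partner of the CCR4-NOT deadenylase, read 9.10, 9.995, 9.18, 9.21 and 9.86 in wild type and 8.45, 8.55, 9.07, 8.88 and 8.53 in heterozygous arrays, again without overlap. Its difference was -0.77 (SE 0.203, limma adjusted p = 0.345). Dusp6, a phosphatase that switches off ERK, read 8.81, 9.47, 8.52, 8.58 and 9.10 in wild type and 7.99, 8.19, 8.58, 8.34 and 7.90 in heterozygous arrays. Only heterozygous 3 reached the wild type range, and the difference was -0.69 (SE 0.196, limma adjusted p = 0.349). The other genes at an unadjusted p under 0.05, named after their values were seen, were Dusp10 at -0.77, Nfkbia at -0.61, Klf2 at -0.61, Btg1 at -0.57, Zfp36l1 at -0.56 and the single higher gene Ier5l at 0.29.

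**Figure D5:**
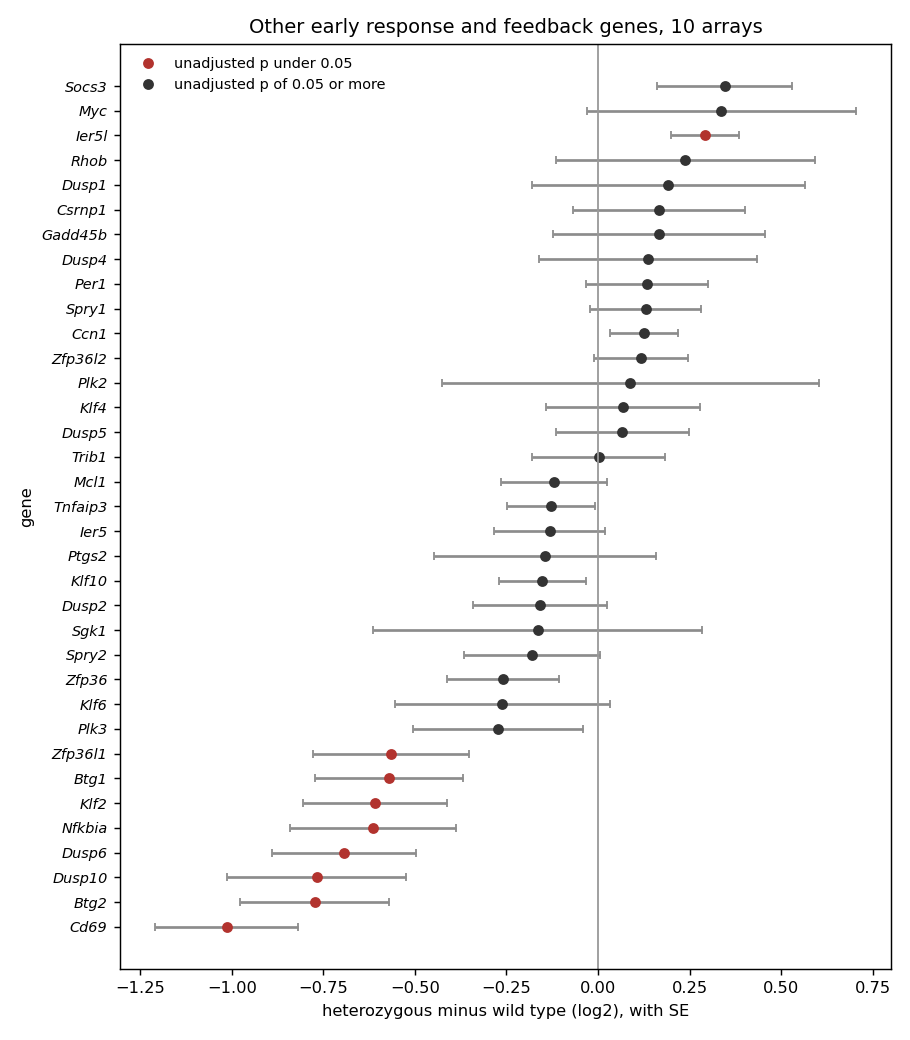
Heterozygous minus wild type difference (log2) with SE for the 35 other early response and feedback genes over 10 arrays, in order of difference. Red marks the 9 genes with an unadjusted p under 0.05, 8 of them lower, from Cd69 at -1.01 to Zfp36l1 at -0.56.

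The genes whose values were most like the mean of the 10 over the arrays, out of 13770 compared, were Ssu72, an RNA polymerase II phosphatase (r = 0.979), Prcp, a lysosomal peptidase (0.977), the adiponectin receptor Adipor1 (0.977), the peroxisomal membrane gene Pxmp4 (0.974) and Shisa5 (0.973). Their genotype differences ran from 0.03 to 0.23. For Egr1 they were Bsdc1 (r = 0.965), the class I gene H2-K2 (0.896), the ARF regulator Smap2 (0.896), the GPI anchor enzyme Pigv (0.893) and the IgM receptor Fcmr (0.893). These are descriptions over 10 arrays of genes picked for their likeness.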

How the data were processed

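Per the labels, the authors ran RMA in Affymetrix Expression Console on Mouse Gene ST arrays and deposited log2 values per gene. The sources used here name no version, build or annotation for it. RMA removes background, equalises the distributions of arrays and summarises probes, so a shift of most genes one way would be largely lost. Array medians ran from 5.38 to 5.49, and the number of arrays limits the precision.

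The platform annotation gave 1 symbol to 21789 of 35556 probe sets, several to 1621 and none to 12146, which it does not list. Symbols were updated through Entrez identifiers against RefSeq (21698 matched), keeping per symbol the probe set of highest mean, and rows at or below the 25th percentile were left out. The fit was made with limma 3.58.1 (R 4.3.3), heterozygous minus wild type, threshold 0.05 after Benjamini-Hochberg adjustment over all genes, with moderated SEs. It was tested on simulated data. Single values were also tested by exact permutation, two-sided, over 252 splits (smallest possible p 0.0079). Correlations used 100000 permutations, two-sided.

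The members, the other gene lists and the tests were chosen with earlier results of these data known. Named were all members, Hspa9, Ptprc, Csf1r, Lyz2, the 3 genes of smallest p per pathway list and the 5 genes most like the member mean and Egr1. Alternatives were other dim-row filters, every probe set as a row, quantile or cyclic loess normalization, array weights, a trended and robust variance, the replicate number as a block, macrophage markers as a covariate and each array left out. The labels call the samples biological replicates, and the series design says that each mouse was cultured independently.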

Additional observations from a re-analysis of the deposited data

Results flagged for a closer look

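Heterozygous 2 stood apart from the other heterozygous arrays in 3 genes. Its Fos value of 8.35 lay above the next of 6.84, a gap of 0.863 of the group's range. Its Egr2 value of 8.54 lay above 7.10, a gap of 0.753 of the range, and its Ier3 value of 8.28 lay above 6.93, a gap of 0.845. Each exceeded Dixon's 95% critical value of 0.71 for groups of 5. Groups were checked in both genotypes for the 10 genes and Hspa9, 22 groups in all, and chance flags about 1 group in 20. The 3 genes varied together, and heterozygous 2 had the highest macrophage marker mean, 9.01. The part of that in these values was not tested.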

How the results depend on the processing

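None of the 10 genes was called under any of the 20 alternatives, with adjusted p of 0.0843 or more. Fosb, Jund, Nr4a1 and Ier3 kept their direction in all 20. Leaving out 1 array turned other directions: Fos ran from -0.20 to 0.60, Jun from -0.18 to 0.032, Junb from -0.092 to 0.24, Egr1 from -0.24 to 0.17 and Ier2 from -0.067 to 0.30. With array weights Jun was at 0.015 and Egr1 at 0.28. With the macrophage mean as a covariate Fos was at -0.55, Junb at -0.15, Egr2 at -0.11 and Ier2 at -0.052. The cause of these changes was not tested. Over all genes 137 were called with array weights, 26 without wild type 1 and heterozygous 2, and 0 to 22 with 1 array left out, against 0 with all 10 arrays. At an unadjusted p under 0.05 the last had 1650 genes. Hspa9 passed with array weights at -0.79 (adjusted p = 0.0381). The 2 normalizations moved the median of all genes from 0.058 to 0.014 and 0.010. With the replicate block 0 genes were called, 0 of them among the 10, and the blocked fit changed no call reported here. At an unadjusted p under 0.05 it had 1 of the 10, against 1340 of all 14953 genes. The correlations of same-numbered arrays were mixed, at -0.528, 0.212, 0.534, 0.043 and 0.309, and so few values cannot settle a pairing. The labels do not say whether the numbers match arrays across genotypes.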

Other observations

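Other early response genes, picked after their values were seen, differed in how they ran along the macrophage order of the arrays. Atf3, a stress-induced partner of AP-1, read from the lowest macrophage mean to the highest 6.08, 6.13, 6.07, 6.81, 7.13, 6.97, 7.03, 7.47, 9.55 and 10.13. Its highest values were in wild type 1 and heterozygous 2, as for Fos. Dusp1, a phosphatase induced with the immediate early genes, read 7.86, 8.26, 7.76, 8.41, 9.04, 8.25, 8.15, 8.85, 9.63 and 9.46 in the same order. Myc, a growth regulator, read 10.22, 10.27, 10.64, 10.74, 10.51, 10.49, 10.46, 9.56, 8.92 and 9.10, so that its lowest values were in the arrays where Fos and Atf3 were highest. Genotype differences of these genes were 0.55 (SE 0.792) for Atf3, 0.19 (SE 0.373) for Dusp1 and 0.34 (SE 0.368) for Myc, and none passed.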
